A study of Mus musculus with 7 samples.

Results

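The plasminogen activators, their receptor and a group of serpins were followed in mouse testis, in primary Sertoli cells and in the TM4 cell line, on Affymetrix single-colour arrays. The 9 genes were the activators Plat and Plau, the receptor Plaur and the serpins Serpinb2, Serpine2, Serpina5, Serpina3n, Serpinb6b and Serpinf1, out of 18336 genes named on the arrays. They were found by gene symbol, among probe sets annotated to exactly 1 gene, and they were chosen with earlier results of these data known, so their values are given as a description with no test. The larger array design, used for Sertoli and TM4 cells, carried 11 probe sets for 8 of the 9 genes among 34945 probe sets naming 1 gene. The smaller design, used for testis, carried 9 probe sets for 7 of them among 10833. Serpine2 was not named for any probe set of either design and Serpinb6b for none of the smaller one, so Serpine2 has no reading here and Serpinb6b none in testis.

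Each of the 7 arrays was a group of its own. The Sertoli arrays were labelled knockout for ERM at the ages of 10 and 4 weeks and wild type at 4 weeks, with no wild-type array at the later age. The TM4 arrays were from cells with and without transfection of ERM, and the testis arrays were from ERM knockout and wild-type mice at 4 weeks. ERM is the product of Etv5 and belongs to the ETS family of DNA-binding regulators. Mice without it lose their spermatogonial stem cells over time. The sources used here give no allele, strain or number of animals for an array. With 1 array per group no difference had a replicate check, so neither p-values nor a spread between samples could be computed. The only measure of error was the spread of log2 ratios between bright probe sets of the same gene, with a standard deviation of 0.20 for the 4-week Sertoli arrays, 0.25 between the knockout ages, 0.18 for the older knockout against wild type, 0.15 for TM4 and 0.25 for testis. That spread was taken within the same arrays, from probe sets at 500 or above on both. It holds no variation between samples and does not cover dimmer readings.

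Plasminogen activators are serine proteases that cut plasminogen, a circulating zymogen, into plasmin, which degrades fibrin and matrix and activates other proteases. Serpins are protease inhibitors that trap their target by offering it a loop as bait, and some have lost inhibition and serve as carriers, chaperones or signals. In the seminiferous tubule of the rat, Sertoli cells secrete both activators in a stage-dependent way, and this proteolysis has been linked to the release of sperm and to the passage of germ cells across the barrier between Sertoli cells.

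Arrays were compared after scaling to the same trimmed mean of 500 within each design, and values below a floor of 100 were raised to it before log2 ratios were taken. A gene was represented by its probe set with the highest mean signal. On that scale the 20 Sertoli marker genes with a probe set summed to 95028, 102451 and 89087 on the Sertoli arrays labelled knockout at 10 weeks, knockout at 4 weeks and wild type, against 18816 and 19096 in TM4 with and without ERM. TM4 is an immortal line from the mouse testis taken as a model of Sertoli cells, but the marker Wt1 read 92.1 and 97.4 there with and without ERM, below the floor, so the line is a limited counterpart of the primary cells. The 3 Etv5 probe sets read 345 to 995 and 282 to 910 on the arrays labelled knockout at 10 and 4 weeks, against 250 to 710 in wild type, so Etv5 was not lower under either knockout label. Which exons were deleted is unknown from the labels, and a probe set outside them would check nothing. Directions are therefore given between arrays as labelled. The array labelled knockout at 4 weeks also differed from the other Sertoli arrays in its 18S ribosomal RNA controls. These read 1966 to 4551 there, against 347 to 587 in the older knockout and 297 to 666 in wild type.

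**Figure D1:**
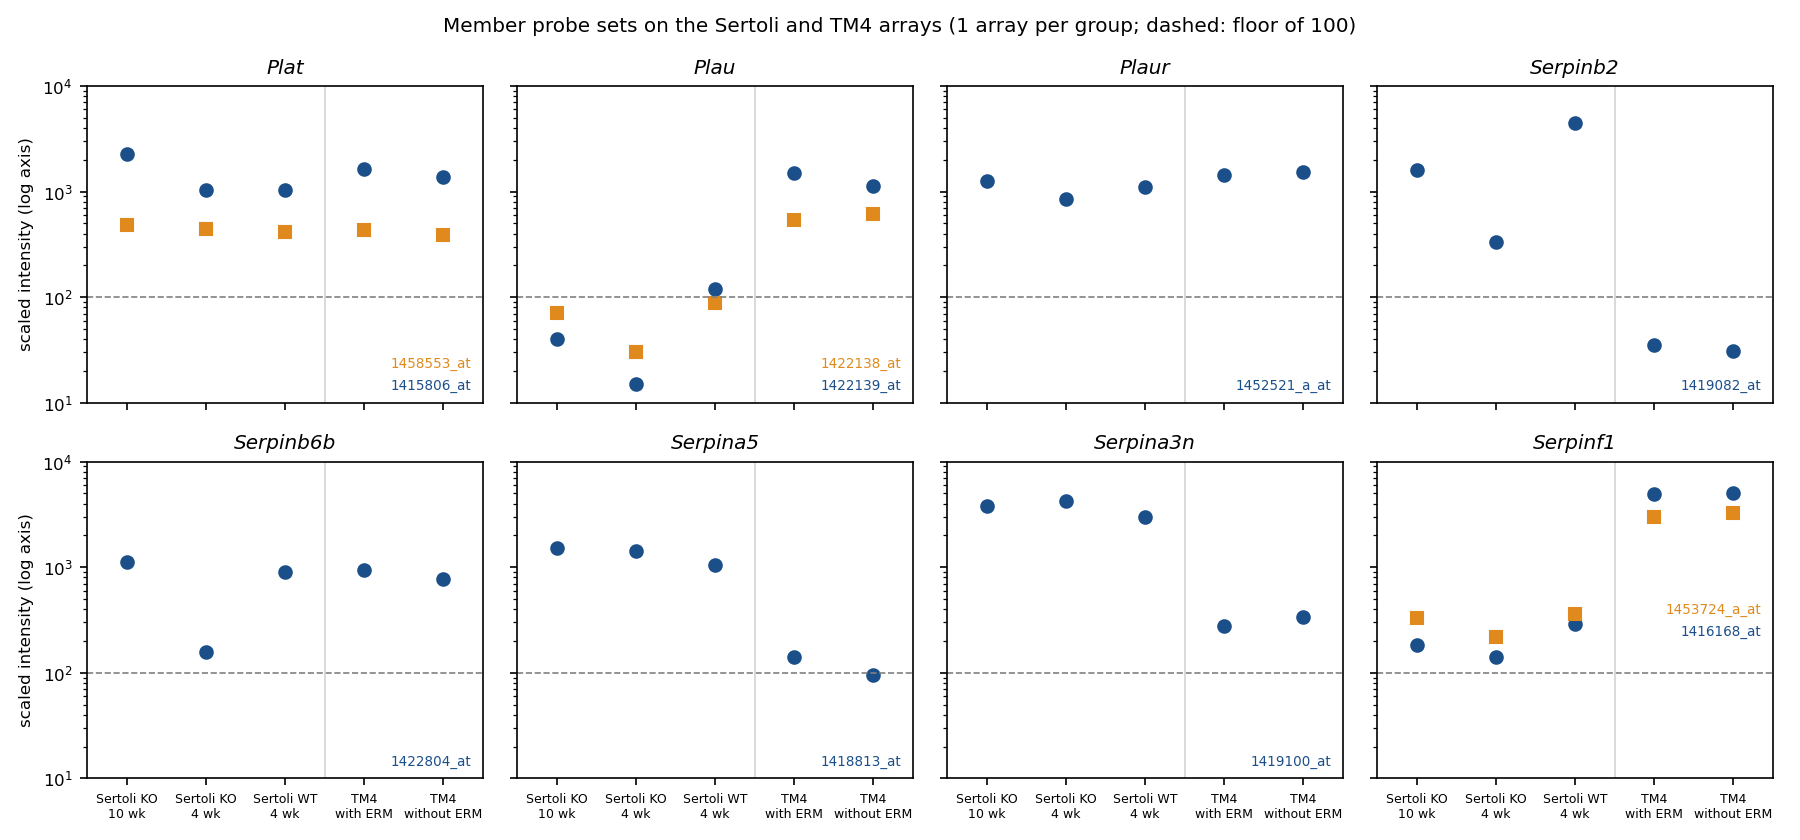
Scaled intensity on a log axis for each member probe set on the 3 Sertoli and the 2 TM4 arrays, 1 array per group with groups as labelled, with blue for the brightest probe set of a gene, orange for its other probe set and a dashed line at the floor of 100. Serpinb2 and Serpinb6b read 331 and 158 in the younger knockout, against 4491 and 903 in wild type.

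In Sertoli cells at 4 weeks, a pair of intracellular serpins of clade B stood lowest on the array labelled knockout, while Plat and Plaur lay within 2-fold and Plau gave only a bound. Serpinb2, known as plasminogen activator inhibitor type 2, blocks the urokinase-type activator and is strongly induced in activated macrophages. Its scaled intensity was 331 on the array labelled knockout, against 4491 on the wild-type array, which is 13.6-fold lower. Serpinb6b, an intracellular inhibitor of granzyme A, read 158 on the array labelled knockout, against 903 in wild type, which is 5.73-fold lower. For both genes the reading in knockout at 4 weeks was the lowest of the 3 Sertoli arrays. Serpinf1, or pigment epithelium-derived factor, a secreted serpin that inhibits no protease and restrains vessel growth, was 2.03-fold lower on its brightest probe set, at 141 against 288 in wild type. Its other probe set read 218 against 364 in wild type, 1.67-fold lower, and the 2-fold difference was lost under 3 of the 7 other settings.

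Of the 8 members read in this comparison, 3 were therefore at least 2-fold lower on the array labelled knockout, where 3.18% of 15860 genes were, and 0 were at least 2-fold higher, where 0.681% were. The median log2 ratio was -0.31 over the members and -0.02 over all genes. Other scalings and floors gave log2 ratios from -3.82 to -3.75 for Serpinb2 and from -2.57 to -2.17 for Serpinb6b. The floors tried and the choice of probe set could not move Serpinb2, which was read above them on 1 probe set. Each of them had 1 probe set on this design, so no second reading of the same RNA was at hand.

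Because Serpinb2 and Serpinb6b were low on the same array, the bases before their annotated starts are shown with those of Serpina5, the member that differed in testis. The stretches are RefSeq sequence of build GRCm38.p6, 250 bases before the start on the + strand, from a table that held 7 of the 9 members (Plaur, Serpina3n, Serpina5, Serpinb2, Serpinb6b, Serpine2 and Serpinf1). They lie at chr1:107511173-107511422 for Serpinb2, at chr13:32965011-32965260 for Serpinb6b and at chr12:104100863-104101112 for Serpina5. A second window, from a further annotated start of Serpinb2, overlaps the one shown and holds the same match. Capitals mark matches on either strand to CCGGAAGT or AGGAAG, motifs of ETS factors and of their PEA3 group, or to TGANTCA, the motif of AP-1. The motifs CCGGAAGT and AGGAAG share the letters GGAAG, and no motif contains another.
Serpinb2: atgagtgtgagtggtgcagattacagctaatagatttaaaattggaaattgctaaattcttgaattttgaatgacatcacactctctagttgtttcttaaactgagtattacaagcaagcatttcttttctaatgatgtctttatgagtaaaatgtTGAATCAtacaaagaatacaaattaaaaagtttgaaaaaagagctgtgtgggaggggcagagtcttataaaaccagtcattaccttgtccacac
Serpinb6b: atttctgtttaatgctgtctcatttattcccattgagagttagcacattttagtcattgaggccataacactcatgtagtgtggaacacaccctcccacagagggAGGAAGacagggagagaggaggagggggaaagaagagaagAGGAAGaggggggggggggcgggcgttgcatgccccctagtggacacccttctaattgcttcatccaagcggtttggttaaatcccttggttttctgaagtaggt
Serpina5: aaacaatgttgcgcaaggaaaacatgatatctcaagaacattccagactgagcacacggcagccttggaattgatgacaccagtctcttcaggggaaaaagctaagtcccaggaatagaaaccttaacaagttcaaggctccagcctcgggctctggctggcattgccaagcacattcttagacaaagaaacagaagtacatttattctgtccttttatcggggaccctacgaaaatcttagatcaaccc
Serpinb2 held 1 match to the AP-1 motif, as TGAATCA, which 6.75% of 32851 windows of this length contained. Serpinb6b held 2 matches to AGGAAG, which 29.5% of the windows contained. None of the 3 windows contained CCGGAAGT, which was in 2.88% of them, and Serpina5 had no match to any of the motifs. Serpinf1, which was also at least 2-fold lower at 4 weeks on its brightest probe set, had no match in its window, which is not shown. Other members, not 2-fold lower at 4 weeks or not read, held the motifs found before Serpinb2 and Serpinb6b. These were TGACTCA and AGGAAG before Plaur and AGGAAG before Serpina3n and Serpine2. These matches describe letters in a short window and do not show binding.

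Among the activators at 4 weeks, Plat, the tissue-type activator, read 1045 on the array labelled knockout, against 1044 in wild type. Its other probe set read 446 against 413 in wild type, so neither probe set of Plat separated the genotypes. Plau, the urokinase-type activator, was close to or below the floor in Sertoli cells. Its brightest probe set read 15.2 on the array labelled knockout and 118 in wild type, which gives a difference of at least 1.18-fold, and its other probe set read 30.2 against 88.8 in wild type, below the floor on both. With the floor lowered to 0.1 of that mean the log2 ratio of the brightest Plau probe set was -1.24, so how far Plau was lower rests on signals near background. Plaur, the cell surface receptor that holds the urokinase-type activator, read 841 on the array labelled knockout, against 1099 in wild type, 1.31-fold lower.

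The secreted clade A members lay on the other side at 4 weeks, within 2-fold. Serpina5, the protein C inhibitor, which also inhibits both plasminogen activators and without which male mice are infertile, read 1408 on the array labelled knockout, against 1042 in wild type, 1.35-fold higher. Serpina3n, a mouse relative of antichymotrypsin that Sertoli cells secrete, read 4252 on the array labelled knockout, against 2979 in wild type, 1.43-fold higher. Both log2 ratios, 0.43 and 0.51, lay within the central 95% of all genes, from -1.11 to 0.72. So did that of Serpinf1, -1.02 on its brightest probe set, while Serpinb2 and Serpinb6b lay below that range.

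**Figure D2:**
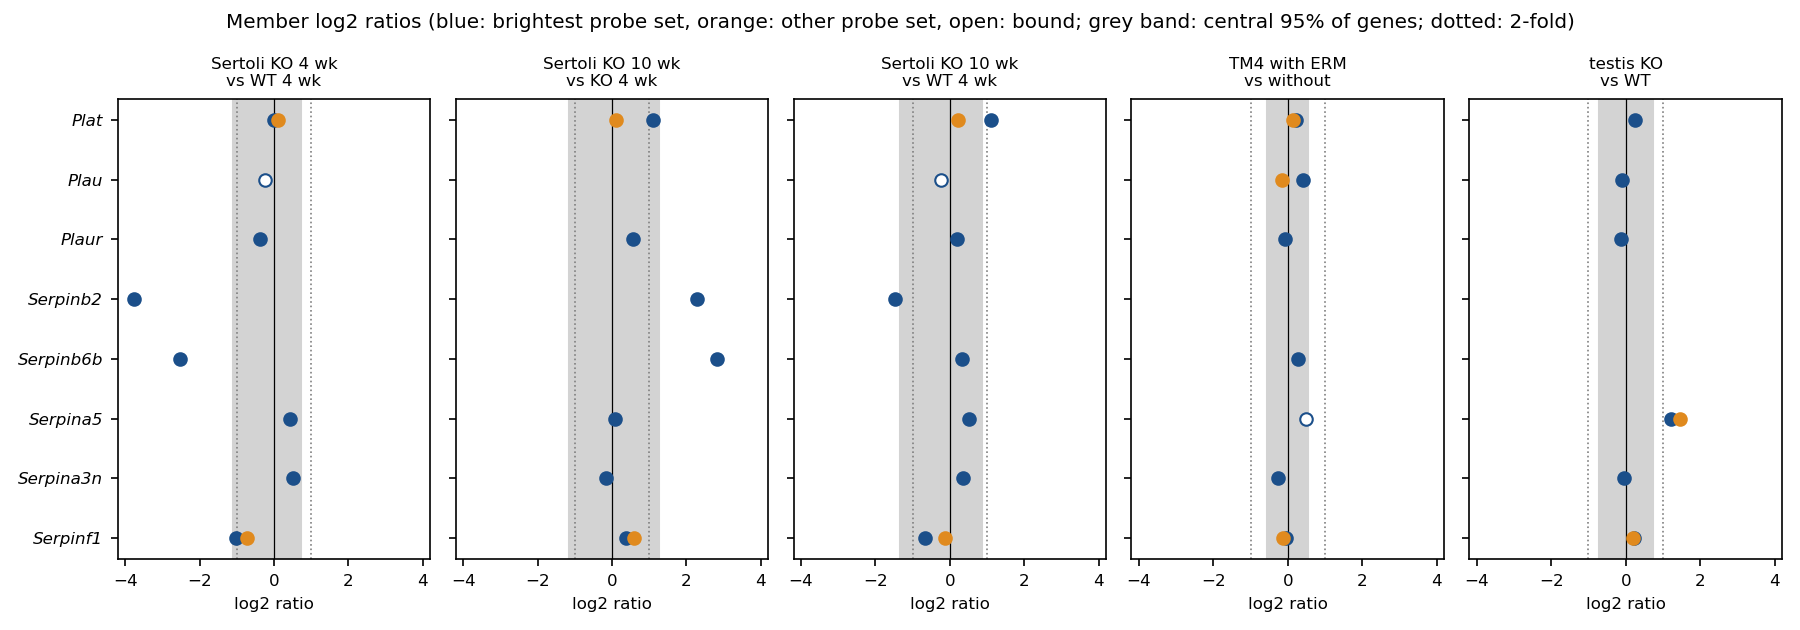
Log2 ratios of the members in 5 comparisons between arrays as labelled, with the brightest probe set of a gene in blue, other probe sets in orange, open circles where 1 array lay below the floor, a grey band for the central 95% of all genes and dotted lines at 2-fold. Serpinb2 and Serpinb6b stand outside the band at -3.76 and -2.52 in Sertoli cells at 4 weeks, and Serpina5 at 1.21 and 1.45 in testis.

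Macrophage markers were also lower on the array labelled knockout at 4 weeks. Of 16 listed markers, 12 reached the floor in the 4-week Sertoli comparison, where 5 passed 2-fold downward and 0 upward. The 5 were Ctss at -3.02, Lyz2 at -1.81, Fcer1g at -1.59, Cd68 at -1.51 and Laptm5 at -1.24, while 2 of the 12 stood above 0. The summed intensity of the 16 was 9824 on the array labelled knockout at 10 weeks and 6181 on that labelled knockout at 4 weeks, against 13707 in wild type. The same sum was 5886 and 5921 in the TM4 line with and without ERM, so it does not measure macrophage RNA alone. Cd163, Cx3cr1, Itgam and Ptprc, among the markers that define the lineage, were below the floor on all 3 Sertoli arrays. Csf1r read 1945, 1617 and 2561 on the Sertoli arrays in that order, but also 1204 and 1247 in TM4 with and without ERM. In the older knockout the macrophage marker sum was below wild type, as was Serpinb2, whereas Serpinb6b was above wild type. Some markers of other cell types differed too at 4 weeks. Of 10 peritubular and fibroblast markers read, 2 were at least 2-fold lower, Col3a1 at -1.41 and Dcn at -1.04, and 4 were above 0. Of 12 germ cell markers, Stra8 stood at -1.74 but Prm2 at 1.04, with a median of -0.25. Of 5 Leydig cell markers, Cyp17a1 was highest at 1.64 and Hsd3b1 lowest at -0.49. The part of any of these cells, or of the high 18S controls, in the readings of Serpinb2 and Serpinb6b was not tested. In bulk RNA, fewer cells of a type and less RNA per cell cannot be told apart.

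Other serpins were examined to see whether the low readings extended through the family. Of 26 other serpins read at 4 weeks, 4 were at least 2-fold lower on the array labelled knockout and 0 at least 2-fold higher, with a median log2 ratio of -0.08. Serpinb9, an inhibitor of granzyme B, read 395 on the array labelled knockout, against 1482 in wild type. Its 2 probe sets stood at -1.91 and -1.89 on the log2 scale. Serpinb1a, an inhibitor of neutrophil proteases, read 137 on the array labelled knockout, against 689 in wild type, a log2 ratio of -2.34, but its other probe set stood at -0.05, so the probe sets of this gene disagreed. The remaining genes were Serpina1c at -1.17, a bound with knockout below the floor, and Serpinh1 at -1.14 with -0.50 on its other probe set, and Serpina1c was named after its value was seen.

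Grouped by clade, a grouping made after the values were seen, 4 of 12 clade B serpins were at least 2-fold lower (Serpinb1a, Serpinb2, Serpinb6b and Serpinb9), as were 3 of 19 serpins of other clades and 3.18% of all genes. Both counts hold members, which were chosen with earlier results known. Without the members, 2 of 10 clade B serpins were at least 2-fold lower, with a median log2 ratio of -0.02. The clade B genes that were not low included close relatives. Serpinb6a, a widespread intracellular inhibitor related to Serpinb6b, read 5419 on the array labelled knockout, against 4694 in wild type, and Serpinb6e read 691 against 607 in wild type. Serping1, the C1 inhibitor of the complement cascade, had a log2 ratio of -0.49. The difference between the clades was not tested.

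**Figure D3:**
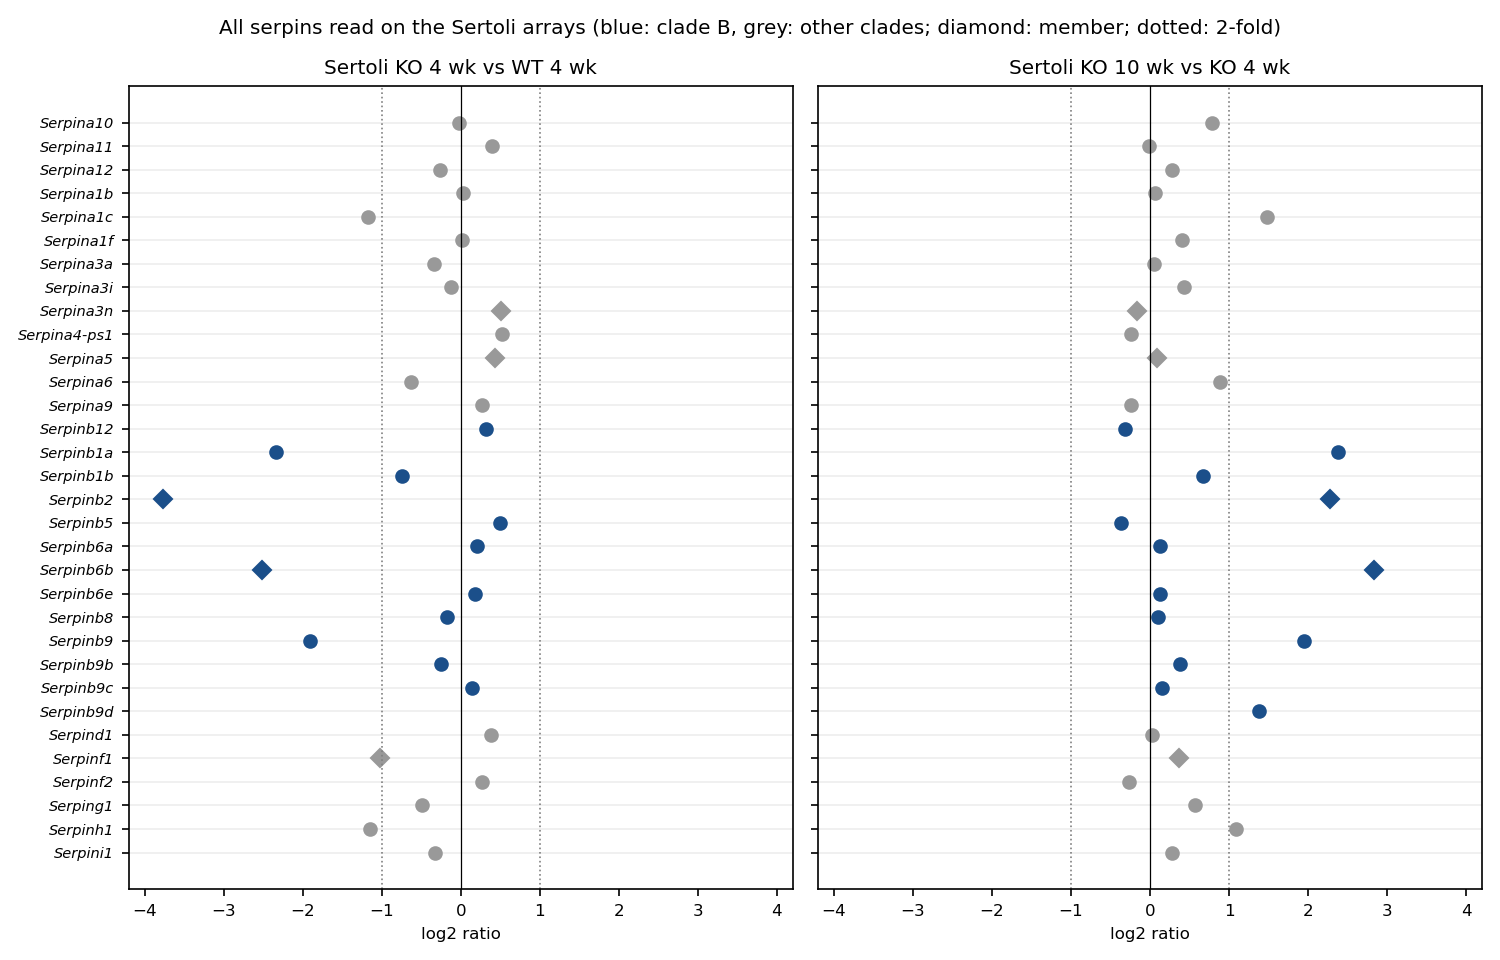
Log2 ratios of all serpins that reached the floor, on the brightest probe set of each gene, for the Sertoli arrays labelled knockout at 4 weeks against wild type (left) and knockout at 10 weeks against knockout at 4 weeks (right), with clade B in blue, other clades in grey, members as diamonds and dotted lines at 2-fold. The panels share the array labelled knockout at 4 weeks, and on the left Serpinb2, Serpinb6b, Serpinb1a and Serpinb9 lie between -3.76 and -1.91. The other Serpinb1a probe set, not drawn, stood at -0.05 in that comparison.

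The plasminogen system beyond the members was described by 40 listed genes, of which Serpinf2 and Serpini1 are also among the other serpins. At 4 weeks, 32 were read, of which 5 were at least 2-fold lower on the array labelled knockout and 0 at least 2-fold higher, with a median log2 ratio of -0.25. Thbd, or thrombomodulin, the thrombin receptor of the protein C pathway, read 113 on the array labelled knockout, against 548 in wild type, and Procr, the protein C receptor, read 198 against 567 in wild type. Their log2 ratios were -2.28 and -1.52. The others were the leukocyte integrin chain Itgb2 (-2.11), the collagenase Mmp13 (-1.83) and the inhibitor Tfpi2 (-1.24), all bounds with knockout below the floor and named after their values were seen.

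Among the brightest and preselected genes of the list, Anxa2 and S100a10, which form a plasminogen-binding complex, had log2 ratios of 0.10 and 0.15 at 4 weeks on their brightest probe sets. Spint2, an inhibitor of cell surface serine proteases, stood at 0.31. Lrp1, the endocytic receptor that clears activator and inhibitor complexes, read 532 on the array labelled knockout, against 362 in wild type, a log2 ratio of 0.56. Plg itself, made mainly in liver, was dim at 149 on the array labelled knockout, against 177 in wild type.

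Between the knockout ages, 3 of 7 members read were at least 2-fold higher at 10 weeks than at 4 weeks, where 4.19% of 15849 genes were, and 0 were at least 2-fold lower, where 3.51% were. The array labelled knockout at 4 weeks is shared with the comparison above. Serpinb2 read 1603 at 10 weeks, against 331 at 4 weeks, 4.85-fold higher. Serpinb6b read 1124 at 10 weeks, against 158 at 4 weeks, 7.13-fold higher. Both thus lay low on the array that is common to the 2 comparisons.

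Plat was the member at 10 weeks that had shown no difference at 4 weeks. Its brightest probe set read 2262 in the older knockout, against 1045 on that labelled knockout at 4 weeks and 1044 in wild type, 2.16-fold and 2.17-fold higher. The other Plat probe set read 478 at 10 weeks, against 446 and 413 on those arrays, with log2 ratios of 0.10 and 0.21. The probe sets of Plat therefore disagreed by about 1 log2 unit, and averaging both brought the log2 ratios to 0.61 and 0.66, under 2-fold. Plau stayed below the floor at both knockout ages, at 39.9 at 10 weeks and 15.2 at 4 weeks on its brightest probe set. Plaur read 1256 at 10 weeks, against 841 at 4 weeks, 1.49-fold higher.

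The other serpins of the members were closer between the ages. Serpina5 read 1502 at 10 weeks, against 1408 at 4 weeks, and Serpina3n 3798 against 4252 at 4 weeks. Serpinf1 was 1.29-fold and 1.52-fold higher at 10 weeks on its 2 probe sets. Beyond the members, both probe sets of Serpinb9 were high, at 1.95 and 1.83, while Serpinb1a stood at 2.38 on the brightest and 0.30 on the other. In all, 5 of 27 other serpins were at least 2-fold higher at 10 weeks, with Serpinh1 at 1.08 (0.13 on its other probe set) and bounds of 1.48 for Serpina1c and 1.38 for Serpinb9d, whose younger knockout was below the floor. In the plasminogen list 3 of 30 genes were at least 2-fold higher and 1 lower. Itgav, an integrin chain that binds vitronectin, read 7891 at 10 weeks, against 3227 at 4 weeks, and Itgb2 and Tfpi2 had bounds of 1.14 and 1.29. Pdgfc, a growth factor that plasmin and Plat activate, read 438 at 10 weeks, against 972 at 4 weeks. Probe sets disagreed for both, with Itgav at 1.29, 1.72, 0.18 and -0.17 and Pdgfc at -1.15 and -0.42.

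Set against the wild-type array at 4 weeks, the array labelled knockout at 10 weeks differed in genotype and age at once, which cannot be told apart. Of 8 members, 1 was at least 2-fold higher (Plat), where 1.62% of 15911 genes were, and 1 was at least 2-fold lower (Serpinb2), where 4.22% were. Serpinb2 read 1603, against 4491 in wild type, 2.80-fold lower, while Serpinb6b read 1124, against 903 in wild type, 1.24-fold higher. Plaur, Serpina5 and Serpina3n had log2 ratios of 0.19, 0.53 and 0.35, and Serpinf1 of -0.66 and -0.13 on its 2 probe sets. Plau was at least 1.18-fold lower, with knockout below the floor. The clade B serpins did not stand alike on this array, with Serpinb9 and Serpinb1a at 0.04 and 0.05. Of 26 other serpins 1 was at least 2-fold higher, Serpinb9d at 1.38 with wild type below the floor. F3, or tissue factor, the trigger of coagulation, read 2768, against 1423 in wild type, and of 32 plasminogen genes the 3 that were at least 2-fold lower were Thbd, Procr and Mmp13, at -1.61, -1.25 and -1.53. Germ cell markers were lower on this array, with 10 of 12 at least 2-fold lower against wild type, and summed to 4440 on it and to 21560 in the younger knockout, against 22323 in wild type. Leydig cell markers stood the other way, with 3 of 5 at least 2-fold higher than in wild type, Cyp17a1 at 3.33 among them, and sums of 6214 in the older knockout and 3731 in the younger, against 2529 in wild type. Of 12 macrophage markers read, 3 were at least 2-fold lower. The part of these shifts in the readings at 10 weeks was not tested.

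In TM4 cells no member passed 2-fold between arrays with and without ERM. The 3 Etv5 probe sets read 211, 473 and 475 with ERM, against 187, 405 and 314 without, so each was higher with ERM but under 2-fold. None of the 7 members read was at least 2-fold higher, where 0.303% of 16158 genes were, or at least 2-fold lower, where 0.421% were, and their median log2 ratio was 0.22, against 0.00 over all genes. Plau read 1489 with ERM, against 1129 without, a log2 ratio of 0.40, and its other probe set read 543 with ERM, against 608 without, a log2 ratio of -0.16. The probe sets of Plau thus went opposite ways. Plat read 1620 with ERM, against 1388 without, and 429 against 389 without on its other probe set, 1.17-fold and 1.10-fold higher.

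The receptor and the serpins were within 2-fold in TM4 where both arrays reached the floor. Plaur read 1446 with ERM and 1536 without. Serpinb2 was below the floor on both arrays, at 35.0 with ERM and 30.9 without, and Serpinb6b read 932 with ERM and 775 without. Serpina5 was dim, at 141 with ERM and 94.4 without, at least 1.41-fold higher. Serpina3n read 280 with ERM and 339 without, and Serpinf1 read 4890 with ERM and 5084 without. Of 28 other serpins, 2 passed 2-fold downward and 0 upward. These were Serpina6 and Serpinb9d, which read 2.69 and 48.9 with ERM, against 282 and 229 without, on 1 probe set each and were named after their values were seen. Of 29 plasminogen genes, 0 were at least 2-fold different in either direction, and Thbd was highest at 0.93.

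Primary Sertoli cells and TM4 were also set against each other. Between the wild-type Sertoli array and TM4 without ERM, 3 of 8 members were at least 2-fold higher in Sertoli cells, where 17.8% of 16916 genes were, and 2 were at least 2-fold lower, where 16.1% were. Serpinb2 was at least 44.9-fold higher in Sertoli cells, Serpina5 at least 10.4-fold and Serpina3n 8.79-fold. Plau was 9.54-fold and 6.08-fold lower in Sertoli cells on its 2 probe sets, the second with Sertoli below the floor. Serpinf1 was 17.7-fold and 8.97-fold lower. Plat, Plaur and Serpinb6b were within 2-fold between these cells, with log2 ratios of -0.41, -0.48 and 0.22 on their brightest probe sets. Among other serpins, Serpinh1, the collagen chaperone of the endoplasmic reticulum, read 493 in wild-type Sertoli cells, against 12422 in TM4 without ERM, and Serping1 read 1844 against 202.

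In whole testis at 4 weeks, Serpina5 was higher on the array labelled ERM knockout. It read 1331 on that array, against 574 in wild type, 2.32-fold higher, and its other probe set read 971, against 356 in wild type, 2.73-fold higher. Both probe sets thus went the same way, and the log2 ratio lay between 1.21 and 1.33 under the other settings. Of 6 members read in testis 1 was at least 2-fold higher, where 0.532% of 7515 genes were, and 0 were at least 2-fold lower, where 0.852% were.

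The activators and the receptor were close between the testis arrays. Plat read 312 on the array labelled knockout, against 262 in wild type, Plau read 136 against 145 in wild type, and Plaur read 311 against 341 in wild type. These ratios were 1.19-fold, 1.07-fold and 1.10-fold. Serpina3n read 259 on the array labelled knockout, against 266 in wild type. Serpinf1 was 1.17-fold and 1.16-fold higher on its 2 probe sets, at 728 and 314 in knockout, against 620 and 271 in wild type. Serpinb2 did not reach the floor in testis, at 38.0 on the array labelled knockout and 51.9 in wild type, so the low reading in Sertoli cells has no counterpart that could be measured here.

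**Figure D4:**
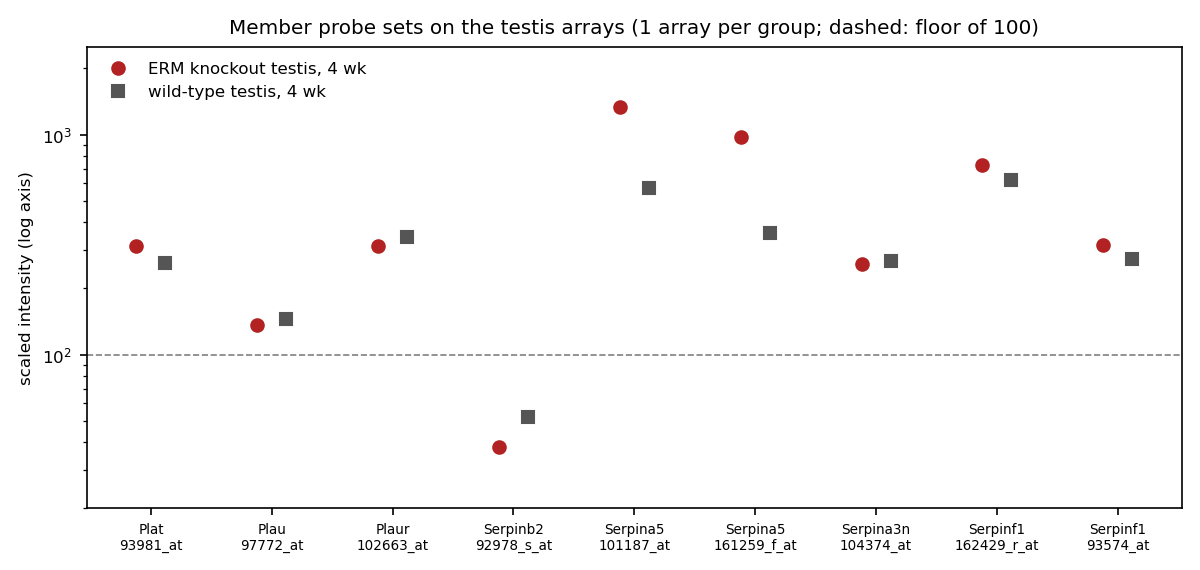
Scaled intensity on a log axis of the member probe sets on the testis arrays labelled ERM knockout (red circles) and wild type (grey squares) at 4 weeks, 1 array each, with a dashed line at the floor of 100. The 2 Serpina5 probe sets read 1331 and 971 on the knockout array, against 574 and 356 in wild type.

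Markers of several cell types also differed between the testis arrays. The 17 Sertoli cell markers with a probe set summed to 29534 on the array labelled knockout, against 22531 in wild type, with a median log2 ratio of 0.30 and 0 at least 2-fold different. Leydig markers had a median of 0.28, and peritubular and fibroblast markers one of 0.27, with Dcn and Pdgfra at 1.03 and 1.18. Of 10 germ cell markers read, 2 were at least 2-fold lower, Dazl at -1.76 and Stra8 at -1.51, a bound. In testis 0 of 17 other serpins were at least 2-fold different, and their median log2 ratio was 0.20, with Serping1 at 0.65 and Serpinh1 at 0.56 the highest. Serpina6, the carrier of glucocorticoids, read 2354 on the array labelled knockout and 2554 in wild type. Of 27 plasminogen genes read, 0 were at least 2-fold different and the median was 0.00, with Anxa2 at 0.48, Lrp1 at -0.03 and S100a10 at 0.29 on its brightest probe set but -0.75 on the other. The part of these marker shifts in the reading of Serpina5 was not tested. In Sertoli cells themselves Serpina5 was 1.35-fold higher on the array labelled knockout at 4 weeks and 1.44-fold higher in the older knockout, both set against wild type.

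The genes most like 3 of the members over the 5 Sertoli and TM4 arrays were sought among 2846 genes with a bright reading and a range of at least 2 log2 units. Likeness was the root mean square difference of log2 intensity after values below the floor of 100 were raised to it. Each gene was centred on its own mean, and the measure describes 5 arrays that share their samples. Nearest to Serpinb2 were Ctss, a lysosomal protease of antigen-presenting cells, at 0.25, and the chemokines Cxcl5 at 0.26 and Cxcl3 at 0.42. Serpinb2, Ctss and Cxcl3 were below the floor on both TM4 arrays, so their likeness in TM4 rests on values raised to it. Ctss read 1830, 468 and 3801 on the Sertoli arrays labelled knockout at 10 weeks, knockout at 4 weeks and wild type, in the order that Serpinb2 showed, and it is also one of the macrophage markers above. Nearest to Plau were Cavin2, a protein of caveolae, Hoxa10 and Dennd6b, at 0.03, 0.03 and 0.06, all of them near the floor in Sertoli cells and bright in TM4. Plau itself read 39.9, 15.2 and 118 on the Sertoli arrays in that order, so its likeness there rests on values raised to the floor. Nearest to Plat were Fnbp1l at 0.33, the transcription factor Ets1 at 0.38 and Rassf5 at 0.39. Plat itself read only 1044 to 2262 over the 5 arrays, a smaller range than the 2 log2 units asked of candidates. Genes with a range like its own were thus left out, and the genes named vary more than Plat. Its other probe set, at 389 to 478, was not used. Ets1 read 3460, 798 and 1642 on the Sertoli arrays in the same order, so its reading in knockout at 4 weeks was below wild type, where Plat was level.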

How the data were processed

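RNA from mouse testis, primary Sertoli cells and TM4 cells was measured on 7 single-colour Affymetrix arrays, each a group of its own by its label. The authors deposited 1 linear intensity per probe set, with 1 as the smallest value found, and the labels name neither the software nor the scaling used. One table holds the testis arrays (12488 probe sets) and another the rest (45101). Within a table, arrays were brought to a common trimmed mean of 500, taken without controls after removing the lowest and highest 2% of probe sets. Trimmed means before scaling were 288 to 299 for Sertoli cells, 183 and 186 for TM4 and 468 and 477 for testis. Values below 100, or 0.2 of that mean, were set to 100, a ratio with 1 array below it is a bound, and none was given with both below. On these arrays 72.0% to 82.2% of probe sets reached the floor. Probe sets with 1 gene symbol in the platform annotation were kept, 34945 and 10833. Those with several (932 and 396), none (9160 and 1193) or controls were left out of gene counts. Symbols were looked up by gene identifier in a RefSeq gene table of GRCm38.p6.

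Members and lists were chosen with earlier results of these data known. Named besides the members were genes of the plasminogen list and other serpins that differed 2-fold with a reading of 500 or more, the 4 brightest others of each, Plg and Lrp1, and the 3 genes most like Serpinb2, Plau and Plat. The 7 other settings were values as deposited, quantile normalization, centring on the median, the floor lowered to 0.1 or lifted to 0.4 of that mean, averaging the probe sets of a gene, and dropping those whose suffix marks possible cross-hybridisation. The steps were tested on simulated data. Python 3.11.15, numpy 2.4.6, pandas 2.3.3 and matplotlib 3.10.9 were used. Precision is limited by having 1 array per group.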

Additional observations from a re-analysis of the deposited data

How the results depend on the processing

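Of 70 recomputed counts of members at least 2-fold different, 68 were within 1.5 times the reported count. For the array labelled knockout at 10 weeks against wild type, the count of higher members was 0 with the mean over probe sets, because the 2 Plat probe sets disagreed, and the count of lower members was 2 once the floor was lowered to 0.1, which added Plau. The comparison of wild-type Sertoli cells with TM4 was not recomputed, so its differences have no such check. Of 9 differences of at least 2-fold among members in the other comparisons, 6 were kept under all 7 settings. The settings on floors and probe sets could not move a gene read well above the floor on 1 probe set. Both differences of Plat were lost under 1 setting each. That of Serpinf1 at 4 weeks was lost under 3, with log2 ratios from -1.08 to -0.53. None of these 9 changed sign, and Plat at 4 weeks, level at 0.00, stood at -0.05 as deposited. Another limit is that leaving out an array leaves no comparison. No paired analysis was possible because each group had 1 array. Signals near the floor, as for Plau in Sertoli cells, give bounds only.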
